A study of Mus musculus with 6 samples.

Results

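FoxO transcription factors and the muscle ubiquitin ligases were measured in hearts of mice that overexpressed Pontin and of their WT littermates. The group held 10 genes, taken by gene name from the deposited count table before any filter. They were the FoxO factors Foxo1, Foxo3 and Foxo4, the MuRF ligases Trim63, Trim54 and Trim55, the F-box receptors Fbxo32, Fbxo30 and Fbxl22, and the SOCS-box receptor Asb2. All 10 were among the 56748 genes of the table, and all 10 were among the 13888 genes that passed the filter on low counts.

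The transgene of the Pontin cTG mice is a human Pontin (Ruvbl1) cDNA with a flag tag. Its αMHC promoter drives it in cardiomyocytes, so other cells of the heart are not targeted. WT mice were littermates without the transgene on the same C57Bl/6 background. All mice were males of 10 weeks, and both groups received angiotensin II at 1.5 mg/kg body weight per day for 14 days from a mini-osmotic pump. RNA came from heart tissue of 3 mice per group, each a biological replicate, and hearts without angiotensin II were not analysed here. The comparison therefore asks how cardiomyocyte Pontin overexpression altered these genes in a heart already under angiotensin II.

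FoxO factors bind DNA through a forkhead domain, and Akt phosphorylation downstream of insulin and IGF receptors keeps them out of the nucleus. In wasting muscle they switch on E3 ubiquitin ligases, among them atrogin-1 (Fbxo32) and MuRF1 (Trim63), which mark proteins for the proteasome. In heart, atrogin-1 and MuRF1 are known for restraining hypertrophic growth and for turnover of sarcomeric proteins. FoxO activity is set largely by phosphorylation and location in the cell, which RNA counts do not measure.

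Promoters bear on this group because Fbxo32 and Trim63 are known for forkhead and glucocorticoid control. RefSeq windows on GRCm38.p6, from 250 bases before to 50 after the start site, were given for 7 of the 10 genes, and Foxo4, Fbxo32 and Trim55 were without a window. The motifs were searched on both strands, the forkhead words TGTTTAC and TGTTTAT, the TATA box word TATAAA, the glucocorticoid palindrome (GAACA and TGTTC set 3 bases apart) and the CArG box of serum response factor. The windows with a match are shown 5′ to 3′ in the direction of the gene, with matches in capitals. Trim63 lies at chr4:134314870-134315169 on the plus strand, Fbxl22 at chr9:66514544-66514843 on the minus strand and Asb2 at chr12:103355952-103356251 on the minus strand.
Trim63: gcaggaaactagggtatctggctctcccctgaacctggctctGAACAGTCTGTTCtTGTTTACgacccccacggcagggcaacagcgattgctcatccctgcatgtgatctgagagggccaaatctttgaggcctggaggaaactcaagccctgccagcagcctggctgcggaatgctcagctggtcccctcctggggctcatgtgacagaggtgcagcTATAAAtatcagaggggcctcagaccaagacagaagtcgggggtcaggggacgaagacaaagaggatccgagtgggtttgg
Fbxl22: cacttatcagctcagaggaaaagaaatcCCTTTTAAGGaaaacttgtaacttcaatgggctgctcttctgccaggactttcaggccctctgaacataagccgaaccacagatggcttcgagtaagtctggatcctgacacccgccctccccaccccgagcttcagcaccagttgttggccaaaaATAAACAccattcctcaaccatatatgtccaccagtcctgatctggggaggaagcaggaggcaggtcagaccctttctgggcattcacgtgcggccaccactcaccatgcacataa
Asb2: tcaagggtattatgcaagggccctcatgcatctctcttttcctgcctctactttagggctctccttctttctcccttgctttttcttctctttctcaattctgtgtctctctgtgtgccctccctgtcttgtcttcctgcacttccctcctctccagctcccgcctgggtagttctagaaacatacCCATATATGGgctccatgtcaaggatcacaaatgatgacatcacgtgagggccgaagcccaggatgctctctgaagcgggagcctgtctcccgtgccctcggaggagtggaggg

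In the Trim63 window the glucocorticoid palindrome began at position -208 from the start site and TGTTTAC at -194, without overlap, and TATAAA began at -31. Of 32851 promoters of the same length, 0.0578% held the palindrome, 3.65% held TGTTTAC and 13.6% held TATAAA. Fbxl22 held TGTTTAT on the opposite strand at position -66 and a CArG box at -222. Asb2 held a CArG box at position -64 in the window shown. TGTTTAT was found in 4.60% of all promoters and the CArG box in 1.63%. The windows of Foxo1, Foxo3, Trim54 and Fbxo30 and another window of Asb2 held none of these words. A match describes the letters only, and no binding was measured here.

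The 6 libraries held 12436822 to 16888124 counts, of which 23.8% to 26.7% were mitochondrial. Mouse Ruvbl1 averaged 218 ± 2.72 normalised counts in WT hearts (SD, n = 3) and 247 ± 5.79 in transgenic hearts (SD, n = 3), with every transgenic heart above every WT heart (exact permutation p = 0.10, the smallest that 3 against 3 can give). Its log2 fold change was 0.18 (SE 0.12, adjusted p = 0.999, edgeR), and reads of the human cDNA need not map to the mouse gene, so this is a weak check of the labels. Cardiomyocyte markers summed to 37628 to 47583 CPM, which are counts scaled to the library total, in all hearts. Myh1 and Myh4, the fast skeletal myosins, were at 0 in every library, and the whole skeletal muscle list stayed at or below 1.34 CPM, so that the muscle ligases were read in cardiac tissue. Pontin cTG replicate 2 stood apart. On the first principal component, which held 48.6% of the variance, it scored 50.9 while the other 5 hearts scored -23.1 to 16.2.

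None of the 10 genes passed the test between Pontin cTG and WT hearts. By the quasi-likelihood test of edgeR with Benjamini-Hochberg adjustment, each had an adjusted p of 0.999, and the share of all tested genes called was 0%. At an unadjusted p under 0.05, edgeR passed 2.05% of all genes and none of the 10, whose smallest unadjusted p was 0.175 for Trim55. Over all genes DESeq2 called 1 gene and limma-voom called 3, none of them among the 10. Fitted fold changes were above zero for 4 of the 10 genes, against 50.2% of all genes tested. Their median log2 fold change was -0.11, against 0.0013 over all genes. In no member were the groups separate, while over all genes the transgenic hearts were all higher in 4.7% and all lower in 3.63%.

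The interval of each difference was wide. The lowest 95% bound was a fold of 0.577, for Foxo3, and the highest was 1.51, for Fbxl22. With 3 hearts per group every interval spanned no change, and each applies to its own gene alone. That of Fbxo32, for one, ran from 0.695 to 1.15. Counting error alone would give a coefficient of variation of 1.40% to 5.76% in the least covered library. Between hearts it ran from 3.61% for Fbxo30, below its counting error of 5.26%, to 19.1% for Asb2 in WT, and from 6.36% for Trim54 to 35.2% for Foxo3 in Pontin cTG hearts. In whole tissue, fewer cells of a type and less RNA per cell cannot be told apart.

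**Figure D1:**
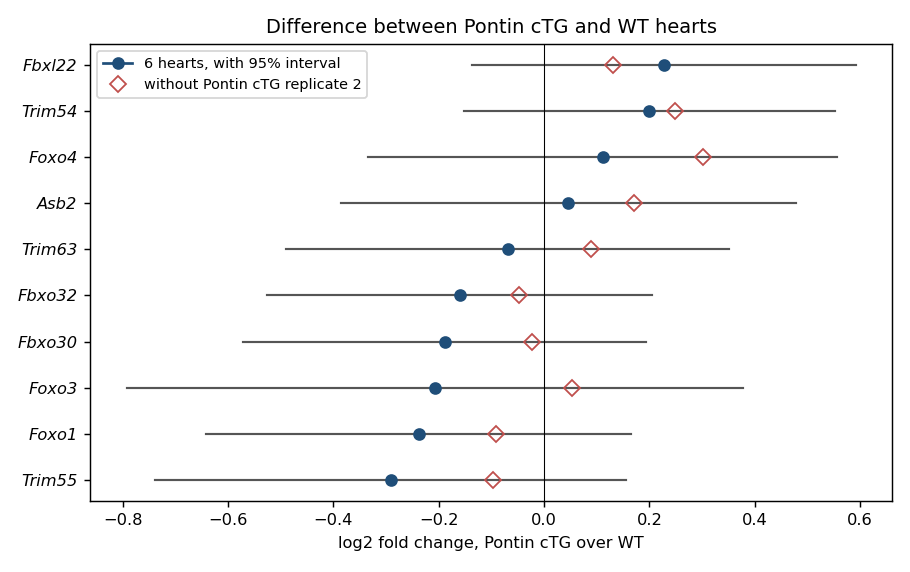
Log2 fold change of each gene, Pontin cTG over WT (x axis), for all 6 hearts (filled points, with 95% intervals from edgeR) and without Pontin cTG replicate 2 (open diamonds). Every interval spans zero, and leaving out that heart moves 9 of the 10 points to the right.

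The FoxO factors were first compared. Values are counts normalised by TMM-scaled library size, in the order of replicates 1 to 3. Foxo1 (ENSMUSG00000044167, chr3:52175757-52260642, GRCm39), the factor that in other tissues governs gluconeogenesis, was at 452, 344 and 362 in WT and at 383, 258 and 342 in Pontin cTG hearts. The highest heart was WT and the lowest transgenic, with overlap between them. Foxo1 gave a log2 fold change of -0.24 (SE 0.18, adjusted p = 0.999, edgeR), which was -0.091 once Pontin cTG replicate 2 was left out and -0.11 without WT replicate 1.

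Foxo3 (ENSMUSG00000048756, chr10:42057837-42152751), best known for driving atrophy genes in muscle, was at 1199, 991 and 1369 in WT hearts and at 1317, 622 and 1144 in Pontin cTG hearts. A single heart, Pontin cTG replicate 2, lay below all others, and the remaining transgenic hearts lay inside the WT range. The log2 fold change of Foxo3 was -0.21 (SE 0.26, adjusted p = 0.999, edgeR), and it turned to 0.053 without that heart. Leaving out WT replicate 3 gave -0.085, leaving out WT replicate 2 gave -0.32, leaving out Pontin cTG replicate 1 gave -0.42, and limma-voom gave -0.025.

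Foxo4 (ENSMUSG00000042903, chrX:100298134-100304479), the X-linked member of the family, was at 796, 694 and 843 in WT hearts and at 870, 606 and 1046 in Pontin cTG hearts. The transgenic hearts held the highest and the lowest value. Its log2 fold change was 0.11 (SE 0.20, adjusted p = 0.999, edgeR). Without Pontin cTG replicate 2 it was 0.30, with unadjusted p = 0.0368 and adjusted p = 0.889 by edgeR, and it was -0.076 without Pontin cTG replicate 3. Foxo1 and Foxo4 thus differed in the sign of their fitted values, and neither passed the test.

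Among the ligases, Fbxo32 (ENSMUSG00000022358, chr15:58039275-58078328), which encodes atrogin-1, the substrate receptor of an SCF complex, was at 1574, 1819 and 2037 in WT hearts. In Pontin cTG hearts it was at 1710, 1358 and 1792. The groups overlapped, and the log2 fold change was -0.16 (SE 0.16, adjusted p = 0.999, edgeR). The 95% interval of the fold ran from 0.695 to 1.15. On the log2 scale Fbxo32 gave -0.047 when Pontin cTG replicate 2 was left out, -0.059 when WT replicate 3 was, -0.25 when WT replicate 1 was, and -0.010 with limma-voom.

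Trim63 (ENSMUSG00000028834, chr4:134042431-134056940), which encodes MuRF1, a RING ligase of the sarcomeric M-line, was at 1908, 2010 and 2266 in WT hearts. It was at 1953, 1510 and 2433 in Pontin cTG hearts, which held both the highest and the lowest value. The log2 fold change was -0.069 (SE 0.19, adjusted p = 0.999, edgeR), with a fold between 0.712 and 1.28. It changed sign to 0.090 when Pontin cTG replicate 2 was left out, and to 0.012 without WT replicate 3. Neither atrogene, the name given to genes that rise together in atrophy, therefore differed by more than the spread between hearts.

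The other MuRF genes lay on either side of zero. Trim54 (ENSMUSG00000062077, chr5:31274056-31294974), encoding MuRF3, which binds microtubules, was at 2072, 1652 and 2270 in WT hearts and at 2323, 2138 and 2426 in Pontin cTG hearts. Only WT replicate 3 reached into the transgenic range. The log2 fold change of Trim54 was 0.20 (SE 0.16, adjusted p = 0.999, edgeR), and 0.31 without WT replicate 3.

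Trim55 (ENSMUSG00000060913, chr3:19698638-19746585), encoding MuRF2, was at 1601, 1286 and 1414 in WT hearts and at 1353, 836 and 1326 in Pontin cTG hearts. Here WT replicate 2 was the heart that reached into the transgenic range. Trim55 gave a log2 fold change of -0.29 (SE 0.20, adjusted p = 0.999, edgeR), the most negative of the 10, and -0.097 without Pontin cTG replicate 2.

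Of the remaining receptors, Fbxo30 (ENSMUSG00000047648, chr10:11157074-11173796), known as MUSA1 and described in denervated muscle, was at 482, 449 and 465 in WT hearts. In Pontin cTG hearts it was at 434, 310 and 482. The coefficient of variation was 3.61% between WT hearts and 21.7% between transgenic hearts. Counting error was 5.26% in the least covered library of this gene, which was Pontin cTG replicate 2. The log2 fold change was -0.19 (SE 0.17, adjusted p = 0.999, edgeR), and it was -0.023 once Pontin cTG replicate 2 was left out, -0.32 once replicate 3 of that group was, and -0.11 with limma-voom.

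Asb2 (ENSMUSG00000021200, chr12:103287401-103322260), a receptor of cullin 5 complexes that targets filamins, was at 7803, 5712 and 8355 in WT hearts and at 8287, 6165 and 8132 in Pontin cTG hearts. Replicate 2 was the lowest heart of each group. The log2 fold change of Asb2 was 0.046 (SE 0.19, adjusted p = 0.999, edgeR), and it was under zero without WT replicate 2 (-0.10), Pontin cTG replicate 1 (-0.021) or Pontin cTG replicate 3 (-0.012).

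Fbxl22 (ENSMUSG00000050503, chr9:66415657-66421891), a cardiac F-box protein of the sarcomeric Z-disc, was at 1120, 841 and 1150 in WT hearts and at 1134, 1373 and 1136 in Pontin cTG hearts. It was the only member that was highest in Pontin cTG replicate 2. Its log2 fold change was 0.23 (SE 0.16, adjusted p = 0.999, edgeR), the most positive of the 10. Leaving out WT replicate 2 gave 0.097, leaving out Pontin cTG replicate 2 gave 0.13, and limma-voom gave 0.074. The gene overlaps Herc1, a gene on the opposite strand that held 752 to 1022 raw counts per library. How far the 2 genes overlap was not measured here. Whether the counting used strand is not given in the sources used here. Without strand, reads over bases that Fbxl22 and Herc1 share cannot be told apart.

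The levels of the 10 genes spread widely. In CPM per kilobase of gene length, Asb2 was highest in WT hearts at 146 ± 27.9 (SD, n = 3), followed by Trim54 at 98.8 ± 15.6, Trim63 at 51.5 ± 4.60 and Trim55 at 38.3 ± 4.24. A middle group held Fbxo32 at 18.4 ± 2.36, Fbxl22 at 18.2 ± 3.00 and Foxo4 at 15.8 ± 1.55, whose hearts overlapped from each to the next. Foxo3 followed at 11.1 ± 1.78, Fbxo30 at 6.36 ± 0.23 and Foxo1 at 3.16 ± 0.47, each separate from its neighbours. In this order Foxo4 and Foxo3 exceeded Foxo1. The MuRF transcripts exceeded atrogin-1 per kilobase, but without division by length Fbxo32 took place 4 and Trim55 place 5 in WT hearts, so that atrogin-1 then lay above MuRF2.

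Transgenic hearts had Asb2 (151 ± 23.7, SD, n = 3), Trim54 (113 ± 7.22), Trim63 (49.1 ± 11.5) and Trim55 (31.3 ± 7.78) in the first 4 places, and Fbxo30 (5.58 ± 1.21) and Foxo1 (2.68 ± 0.52) in the last. Between them came Fbxl22 (21.4 ± 2.42), Foxo4 (17.1 ± 4.50), Fbxo32 (16.5 ± 2.35) and Foxo3 (9.64 ± 3.40). Each neighbour overlapped with the next from Trim55 to Fbxo32 and from Foxo3 to Fbxo30, while Fbxo32 was separate from Foxo3. Over all hearts, Asb2 lay at percentile 98.3 of the level of all tested genes and Trim54 at 97.6, whereas Foxo1 lay at 45.2. Without division by the deposited gene length, Trim63 took place 2 and Trim54 place 3 in WT hearts, and Foxo3 (place 6) lay above Foxo4 (place 8). In Pontin cTG hearts Fbxo32 then took place 4 and Trim55 place 6.

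**Figure D2:**
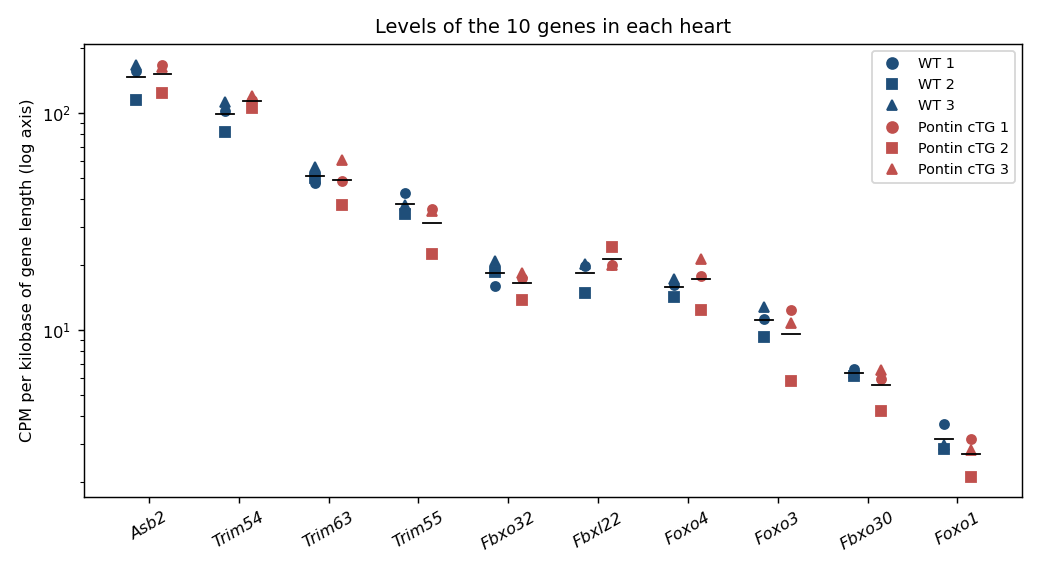
Level of each gene in each heart, in CPM per kilobase of gene length (log axis), with WT hearts in blue, Pontin cTG hearts in red, a symbol shape per replicate number and a bar at each group mean. Pontin cTG replicate 2 (red squares) lies lowest for Foxo1, Foxo3, Foxo4, Fbxo32, Trim63, Trim55 and Fbxo30.

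Pontin cTG replicate 2 was the lowest of the 6 hearts for 7 of the 10 genes, against 30.7% of all genes, and the highest for 1, against 30.2% of all genes. Set against the WT mean, Foxo3 was at 52.4% in this heart, Trim55 at 58.3%, Fbxo30 at 66.6%, Foxo1 at 66.8%, Trim63 at 73.2%, Fbxo32 at 75.0% and Foxo4 at 77.9%. Asb2 was at 84.6%, Trim54 at 107% and Fbxl22 at 132%. In the other Pontin cTG hearts these shares ran from 88.6% for Foxo1 to 134% for Foxo4. The FoxO factors and atrogenes were thus low together in this heart, while Trim54 and Fbxl22 were not.

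Other measures moved with this heart. Nppa, the atrial natriuretic peptide gene that rises in hypertrophic ventricle, was at 7716 normalised counts there and at 360 to 1842 in the other 5 hearts. The atrial marker list summed to 551 CPM there and to 27.5 to 132 CPM elsewhere, almost wholly through Nppa, since raw counts of the atrial genes Myl7 and Sln did not exceed 6 in any library. Endothelial markers summed to 1002 CPM in this heart and to 700 to 834 CPM elsewhere. Across all genes, the correlation of gene length with the deviation of a heart from the gene's mean (Spearman's rho, 13888 genes, which are not independent) was -0.20 in this heart, -0.16 in Pontin cTG replicate 3 and 0.084 to 0.18 in the other hearts. Their part in the low values was not tested. Without this heart 6 of the 10 genes had a fitted fold change above zero, and the median log2 fold change was 0.071, against -0.0049 over all genes.

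**Figure D3:**
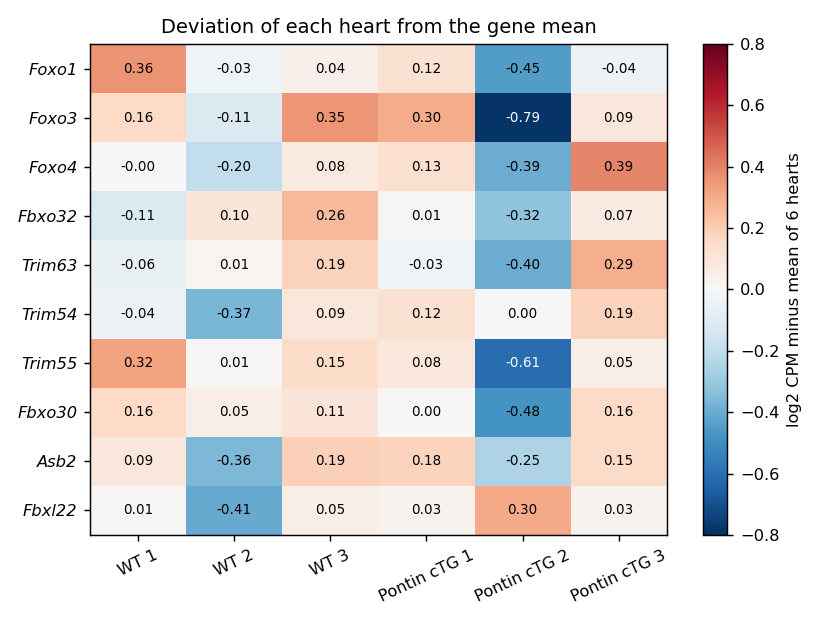
Log2 CPM of each gene (rows) in each heart (columns) minus the mean of the 6 hearts, red above and blue below it, with the value printed in each cell. The column of Pontin cTG replicate 2 runs from -0.79 for Foxo3 to 0.30 for Fbxl22.

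WT hearts varied too. WT replicate 2 was lowest for Trim54, Asb2 and Fbxl22 and was lowest for 15.4% of all genes. Its leukocyte and macrophage markers summed to 205 CPM, against 99.8 to 152 CPM in the other hearts. The part of these cells in the low values was not tested. Without WT replicate 2 the log2 fold change of Trim54 was 0.079.

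Ratios between genes of the same heart do not depend on library size. The 6 ratios, of levels per kilobase, were chosen after the counts had been seen. Trim63 over Fbxo32 was 2.98, 2.71 and 2.73 in WT hearts and 2.80, 2.73 and 3.33 in Pontin cTG hearts (exact permutation p = 0.60). In Pontin cTG replicate 2, where MuRF1 and atrogin-1 transcripts were each low, this ratio lay inside the WT range. Trim55 over Trim54 was 0.417, 0.420 and 0.336 in WT hearts and 0.315, 0.211 and 0.295 in Pontin cTG hearts. The groups did not overlap for this ratio, at an exact permutation p of 0.10, the smallest possible. The adjusted permutation p over the 6 ratios was 0.60. MuRF2 relative to MuRF3 was thus lower in each transgenic heart. With 3 hearts per group the smallest possible p lies above the threshold, so this test could not decide whether the groups differ. The ratio set Trim55, fitted lower (log2 fold change -0.29), over Trim54, fitted higher (0.20), so it draws on those same differences. How often ratios of other gene pairs separate the groups was not measured. Trim55 is longer than Trim54, at 2659 and 1436 bases, and the part of gene length in this ratio was not tested.

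The other ratios overlapped. Trim63 over Trim54 averaged 0.528 ± 0.078 in WT hearts and 0.429 ± 0.075 in transgenic hearts (SD, n = 3, exact permutation p = 0.30). Foxo3 over Foxo1 averaged 3.55 ± 0.68 and 3.51 ± 0.65 (exact permutation p = 1), and Foxo3 over Foxo4 averaged 0.699 ± 0.046 and 0.558 ± 0.12 (exact permutation p = 0.30). Asb2 over Fbxl22 lay between 7.73 and 8.32 in 5 hearts and at 5.11 in Pontin cTG replicate 2 (exact permutation p = 0.90).

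**Figure D4:**
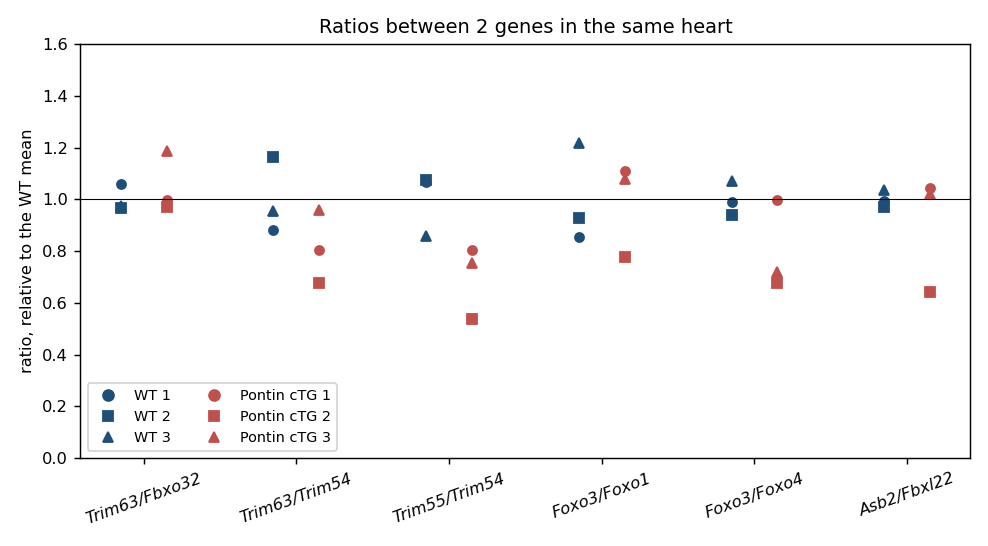
Ratio of the levels of paired genes within each heart, divided by the mean ratio of the WT hearts (y axis, linear from 0), with WT in blue and Pontin cTG in red. For Trim55 over Trim54 every Pontin cTG heart lies below every WT heart.

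Relations between the FoxO factors and the atrogenes were examined across the 6 hearts, as 7 correlations of log2 CPM. Fbxo32 and Trim63 gave Pearson's r = 0.87 (exact permutation p = 0.0333, adjusted p = 0.136) and Spearman's rho = 0.83 (exact permutation p = 0.0583, adjusted p = 0.408). Without the 2 hearts farthest from the median of Fbxo32, Pontin cTG replicate 2 and WT replicate 3, r was 0.58. Foxo4 and Trim63 gave r = 0.86 (exact permutation p = 0.0389, adjusted p = 0.136) and rho = 0.71 (exact permutation p = 0.136, adjusted p = 0.476), and r fell to 0.18 without Pontin cTG replicates 2 and 3. Leaving out the hearts farthest from the median narrows the range, so the fall of r does not show what this relation rested on.

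Foxo3 gave r = 0.78 with Fbxo32 (exact permutation p = 0.0847, adjusted p = 0.158) and 0.78 with Trim63 (exact permutation p = 0.0903, adjusted p = 0.158). The corresponding rho was 0.49 (exact permutation p = 0.356) and 0.37 (exact permutation p = 0.497), each with an adjusted p of 0.696. Without Pontin cTG replicate 2 and WT replicate 2 these r were 0.55 and -0.21. Foxo4 with Fbxo32 gave r = 0.59 (exact permutation p = 0.20, adjusted p = 0.28) and rho = 0.37 (exact permutation p = 0.497, adjusted p = 0.696), with r at 0.034 without Pontin cTG replicates 2 and 3. Foxo1 gave r = 0.42 with Fbxo32 and 0.48 with Trim63 (exact permutation p = 0.403 and 0.307, adjusted p = 0.403 and 0.358), with rho of 0.086 and -0.086 (exact permutation p = 0.919, adjusted p = 0.919). Without Pontin cTG replicate 2 and WT replicate 1, the r of Foxo1 were -0.18 and -0.55. No relation passed the adjusted threshold of 0.05. Scaled by library size alone, every r was lower, from 0.14 for Foxo1 with Fbxo32 to 0.80 for Fbxo32 with Trim63.

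The patterns most like those of the atrogenes were sought among all 13887 other tested genes, as a description. Over the 6 hearts, Fbxo32 was most like Mpzl3 (r = 0.985), Tmem220 (r = 0.984) and Gm2981 (r = 0.979), and Trim63 ranked 142. Trim63 was most like Mios (r = 0.993), Abcd2 (r = 0.990) and Nfs1 (r = 0.987), and Fbxo32 ranked 556. An r over 0.9 was reached by 86 genes for Fbxo32 and by 338 for Trim63, and all these points share the low value of Pontin cTG replicate 2.

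Genes around the FoxO factors and ligases were read in 5 lists, and none of their members passed an adjusted p of 0.05. Of 24 regulators upstream of FoxO factors 23 were tested, Mstn being too low, and 6 were fitted higher and 17 lower with a median log2 fold change of -0.17. This median was -0.046 without Pontin cTG replicate 2, with 10 higher and 13 lower. Sgk1, a kinase that phosphorylates FoxO factors, averaged 812 ± 92.4 in WT hearts and 966 ± 298 in transgenic hearts (SD, n = 3), and its log2 fold change was 0.25 (SE 0.22), which was 0.011 when Pontin cTG replicate 1 was left out and 0.45 when replicate 3 was. Igf1r, the IGF receptor, gave 0.11 (SE 0.14), and 0.042 to 0.18 without single hearts. On the lower side, the acetyltransferase gene Ep300 was at 788 ± 88.2 and 591 ± 169, a log2 fold change of -0.42 (SE 0.20), and Nr3c1, the glucocorticoid receptor, was at 1576 ± 139 and 1321 ± 212, a log2 fold change of -0.25 (SE 0.16). Without Pontin cTG replicate 2 these were -0.24 for Ep300 and -0.13 for Nr3c1. None of these values passed the test (adjusted p = 0.999 for each, edgeR).

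Described FoxO targets, other than the ligases, split evenly. Of 22 tested, 11 were fitted higher and 11 lower, with a median of -0.0039, or 0.096 with 16 higher and 6 lower without Pontin cTG replicate 2. Leaving out WT replicate 3 gave a median of 0.081, with 17 higher and 5 lower. Depp1, an autophagy regulator, was at 204, 191 and 359 in WT hearts and at 599, 325 and 257 in Pontin cTG hearts. Its log2 fold change of 0.65 (SE 0.34) went with overlapping groups, and was 0.22 when Pontin cTG replicate 1 was left out and 1.00 when WT replicate 3 was. Klf2, an endothelial transcription factor, gave 0.40 (SE 0.18), Sesn3, a sestrin that restrains mTORC1, gave -0.30 (SE 0.20), and Txnip, which binds thioredoxin, gave -0.42 (SE 0.30). Without single hearts Klf2 gave 0.25 to 0.53, Sesn3 -0.44 to -0.088 and Txnip -0.78 to -0.15. The smallest unadjusted p of these was 0.0534, for Klf2 (adjusted p = 0.999, edgeR).

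Other ligases described in muscle were fitted higher in 7 and lower in 19 of 26 genes, with a median of -0.087, or 0.032 with 17 higher and 9 lower without Pontin cTG replicate 2. Stub1, which encodes the chaperone-bound ligase CHIP, was at 422, 389 and 489 in WT and at 518, 535 and 557 in Pontin cTG hearts. The groups did not overlap, and the log2 fold change was 0.31 (SE 0.13, unadjusted p = 0.0400, adjusted p = 0.999, edgeR). Cbl, a ligase of receptor tyrosine kinases, was at 591, 564 and 542 in WT and at 541, 403 and 371 in Pontin cTG hearts. Its groups did not overlap either, though the nearest hearts were almost level, at 542 and 541. The log2 fold change of Cbl was -0.37 (SE 0.16, unadjusted p = 0.0450, adjusted p = 0.999, edgeR). Fbxo25, a cardiac F-box gene, gave 0.28 (SE 0.15) and Itch, a HECT ligase, gave -0.28 (SE 0.16). Fbxo25 gave 0.16 when Pontin cTG replicate 3 was left out, and Itch -0.13 when replicate 2 was. Groups in this list were separate for 1 gene higher and 2 genes lower in Pontin cTG hearts. That was 11.5% of the list, against 8.33% of all genes tested.

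The cullin-RING scaffolds, E2 enzymes and ubiquitin genes that serve the ligases were fitted higher in 13 and lower in 7 of 20 genes, with a median of 0.042. Leaving out Pontin cTG replicate 2 gave 17 higher and 3 lower with a median of 0.073, leaving out replicate 3 gave 10 and 10 with a median of 0.0016, and leaving out replicate 1 gave a median of 0.086. Ubb, a polyubiquitin gene, was at 3454 ± 446 and 4236 ± 238 (SD, n = 3), a log2 fold change of 0.29 (SE 0.15, adjusted p = 0.999, edgeR). Every transgenic heart lay above every WT heart, but the nearest were almost level, at 3968 in WT replicate 3 and 3972 in Pontin cTG replicate 3. Ube2g1, an E2 enzyme, gave -0.12 (SE 0.17), and Cul5, the cullin that works with Asb2, gave -0.11 (SE 0.19), and each turned above zero when Pontin cTG replicate 2 was left out (0.022 and 0.071).

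Transcripts of 14 proteins described as substrates of the ligases were fitted higher in 4 and lower in 10, with a median of -0.041. The direction turned to 9 higher and 5 lower without Pontin cTG replicate 3, with a median of 0.062, and it was 7 and 7 without WT replicate 2, with a median of -0.0050. Tnni3, cardiac troponin I and a substrate of MuRF1, averaged 39061 ± 726 in WT hearts and 48202 ± 5400 in transgenic hearts (SD, n = 3), and Myl2, the ventricular light chain, was at 73057 ± 2016 and 86291 ± 6158. Each was higher in every transgenic heart, with log2 fold changes of 0.30 (SE 0.14) and 0.24 (SE 0.12), and neither passed the test (adjusted p = 0.999, edgeR). Myh6, the α-myosin heavy chain, gave -0.18 (SE 0.19), and Flnc, the filamin C gene a filamin of the Z-disc, gave -0.17 (SE 0.22). Myh6 turned to 0.033 without WT replicate 2, and Flnc to 0.043 without Pontin cTG replicate 3. RNA counts do not show how much of these proteins was degraded.

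**Figure D5:**
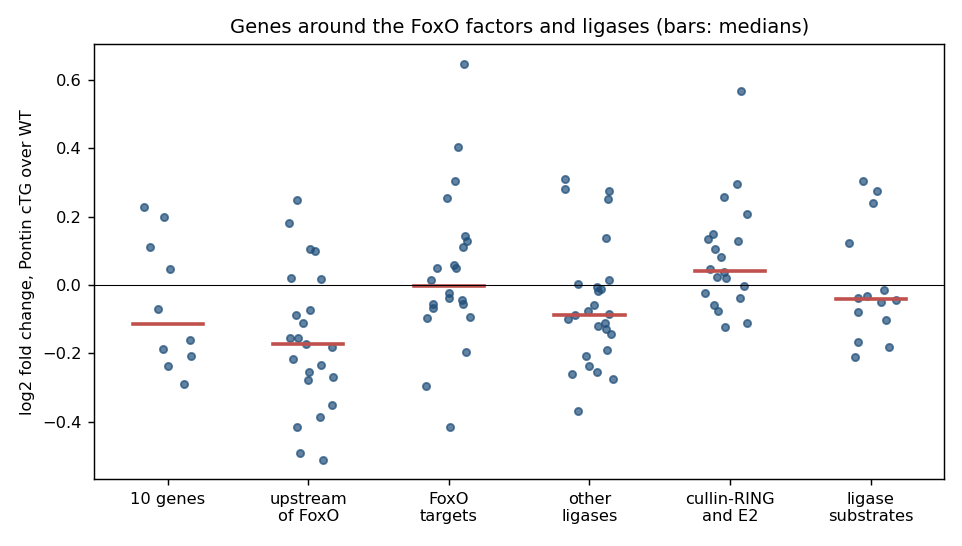
Fitted log2 fold change of each gene, Pontin cTG over WT (y axis), in the 10 genes and in the 5 lists around them, with a red bar at each median. Medians lie between -0.17 for upstream regulators and 0.042 for cullin-RING and E2 genes, and no point passed an adjusted p of 0.05.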

How the data were processed

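The deposited table held raw read counts per gene with gene name, gene length and GRCm39 coordinates for 6 libraries of mouse heart RNA. On its making the sources differ. Per the labels, the submitters' processing notes name fastp, HISAT2, featureCounts, DESeq2 and GRCm39 (mm39), while the study's methods give another trimmer, STAR and mm10. The methods also mention a sample excluded as an outlier, and all 6 libraries of the table were used here. Reads of close paralogs may have been split or dropped by the authors' counting.

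Genes were kept by filterByExpr with a minimum count of 10 and tested in edgeR 4.0.16 (R 4.3.3) by quasi-likelihood (TMM factors, robust, genotype as the only term), with Benjamini-Hochberg adjustment over 13888 genes at a threshold of 0.05. For normalised counts, each count was brought to a common library size, the geometric mean of the TMM-scaled sizes. Log2 CPM used a prior count of 2. Standard errors are the log2 fold change divided by the root of F. Exact permutation tests were two-sided. DESeq2 1.42.0 and limma 3.58.1 served as alternatives, with others on scaling, filters and single hearts. No 2 libraries agreed within sampling noise (smallest chi-square per gene 5.55).

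Members and lists were chosen with earlier results of these data known. Named beside the 10 genes and Ruvbl1 are the 2 genes of smallest p in each direction in each list and the 3 most correlated with Fbxo32 and Trim63, while Nppa, Herc1, Myl7 and Sln were added after their values were seen. A gene that this rule names is not reported here. Marker totals are sums of CPM. Fibroblast, smooth muscle, erythroid, adipocyte and ventricular marker lists held no gene past the threshold, as was so for all 13888 genes. The ventricular total, which includes Myl2, was nonetheless higher in every transgenic heart. It was 8905 to 10106 CPM in WT hearts and 10832 to 11851 CPM in Pontin cTG hearts.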

Additional observations from a re-analysis of the deposited data

How the results depend on the processing

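No member passed the threshold under any of the 15 alternatives, with adjusted p between 0.859 and 0.9998. Over all genes edgeR called 0, DESeq2 1, edgeR without the filter on low counts 3, limma-voom with quality weights 3, and edgeR without single hearts 0 to 3, the 3 without Pontin cTG replicate 2. The number of members with separate groups rose from 0 to 1 (Trim54) with library size alone and to 1 to 2 without single hearts, where 13.2% to 21.5% of all genes were separate. Trim63 turned to a log2 fold change of 0.032 with limma-voom. Without single hearts, fitted values crossed zero for Trim63 (-0.25 to 0.090), Asb2 (-0.10 to 0.17), Foxo3 (-0.42 to 0.053), Foxo4 (-0.076 to 0.30), Myh6 (-0.29 to 0.033), Ube2g1 (-0.21 to 0.022), Cul5 (-0.21 to 0.071) and Flnc (-0.42 to 0.043). The cause was not tested. Replicate numbers are shared between groups, but same-numbered hearts deviated together with correlations of 0.077, 0.43 and 0.19, and only WT replicate 2 correlated best with its own number. With the replicate block, 0 genes were called, 499 had an unadjusted p under 0.05 against 285 without it, and the median of the 10 genes was -0.13. With 3 hearts per group, folds inside the printed intervals could not be resolved.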
